A study of Homo sapiens with 6 samples.

Results

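The genes described are the cytokine LIF and its relatives of the interleukin-6 family, their receptors, the transcription factor STAT3 and the feedback inhibitor SOCS3. They were read in U-87 glioma cells labelled as P68 knockdown or wild type. The rule named 10 genes, LIF, IL6, IL11, CLCF1, OSMR, LIFR, IL6ST, IL6R, STAT3 and SOCS3, and took for each the probe set annotated to that gene alone. Of these, 9 were measured among 18417 genes, each by 1 probe set, and CLCF1 is not analysed here. The group was put together with the lower LIF signal of the knockdown arrays already known, so the values of the members in this contrast are a description and carry no test.

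U-87 is an established human glioma line, and its samples are labelled as brain. The total RNA of 6 samples was read on Affymetrix arrays, with 3 samples in the P68 knockdown group and 3 in the P68 wild-type group. Cells received an siRNA against P68 or a reagent the labels call NC, which they do not tie by name to the wild-type arrays, and the labels name no other allele, agent or time after transfection. Every value comes from this 1 cell line. Separate cultures are not stated for the replicates, so SDs, SEs and p-values measure only the spread between these samples, which may be technical. P68 is the RNA helicase encoded by DDX5, whose own signal was lower in the knockdown, at 9.47, 9.79 and 9.91 for replicates 1, 2 and 3, than in the wild type, at 10.09, 10.25 and 10.30. Signals are on a log2 scale, on which a difference of 1 is a 2-fold change. The log2 difference of DDX5 was -0.49 ± 0.13 (SE), or 71.2% of its wild-type signal. DDX5 itself did not pass the limma test over all genes (adjusted p = 0.902), and P68 protein was not measured on these arrays.

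Cytokines of the interleukin-6 family are secreted signals, most of which assemble receptor complexes around the shared chain gp130, the product of IL6ST. Interleukin-31, counted with the family, uses its own receptor chain with the oncostatin M receptor instead. Interleukin-6 and interleukin-11 first bind their own receptor chains, whereas LIF pairs gp130 with the LIF receptor, and oncostatin M uses gp130 with the oncostatin M receptor. The complexes activate JAK kinases, which phosphorylate STAT3, and STAT3 in turn switches on SOCS3, which shuts the signal down. In glioma this pathway is known for its part in the mesenchymal state and in the self-renewal of stem-like tumour cells.

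Of the 3 measured ligands among the members, LIF was lower in the knockdown, while IL6 and IL11 lay close to the wild type. LIF, the leukaemia inhibitory factor that sustains stem cell states through gp130, gave 3.67, 3.67 and 3.71 on the knockdown arrays, in the order of replicates 1, 2 and 3 as for every gene here (probe set 8075310). In the wild type it gave 3.99, 4.12 and 4.18. All 3 knockdown arrays lay below every wild-type array, with a gap of 0.28 between the groups. The mean was 3.68 ± 0.02 against 4.10 ± 0.10 (SD, 3 arrays per group). The log2 difference was -0.41 ± 0.10 (SE), which puts LIF at 75.1% of its wild-type signal. Fewer cells making LIF and less LIF RNA per cell cannot be told apart in RNA from whole cultures.

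The LIF difference was also taken with each array left out, which could not change its sign because the groups do not overlap. It was -0.47 when wild-type replicate 1 was left out and -0.37 when wild-type replicate 3 was, and the other 4 such values lay between these. The knockdown arrays spanned 0.04 for LIF, whereas DDX5 itself spanned 0.44 over the same arrays. Across all genes, 0.353% had a log2 difference at or below that of LIF. LIF was chosen for its lower signal in this contrast, so its rank is a description and no measure of chance. The mean LIF signal, however, ranked at percentile 31 of all genes, within the dimmest 40%, and no detection call was used, so it may include background.

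IL6, the cytokine of the acute-phase and inflammatory response, gave 4.18, 4.21 and 4.19 in the knockdown and 4.22, 3.85 and 4.04 in the wild type. The groups overlapped, since wild-type replicate 1 was the brightest of the 6 arrays. Its log2 difference of 0.16 ± 0.11 (SE) was 0.06 without wild-type replicate 2 and 0.25 without wild-type replicate 1. IL11, a cytokine known for its part in stromal and fibrotic responses, gave 5.72, 5.94 and 5.79 in the knockdown against 5.71, 5.72 and 5.72 in the wild type. The groups touched at 5.72, and knockdown replicate 2 stood highest. The log2 difference of 0.10 ± 0.10 (SE) was 0.04 without knockdown replicate 2 and 0.15 when knockdown replicate 1 was left out.

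**Figure D1:**
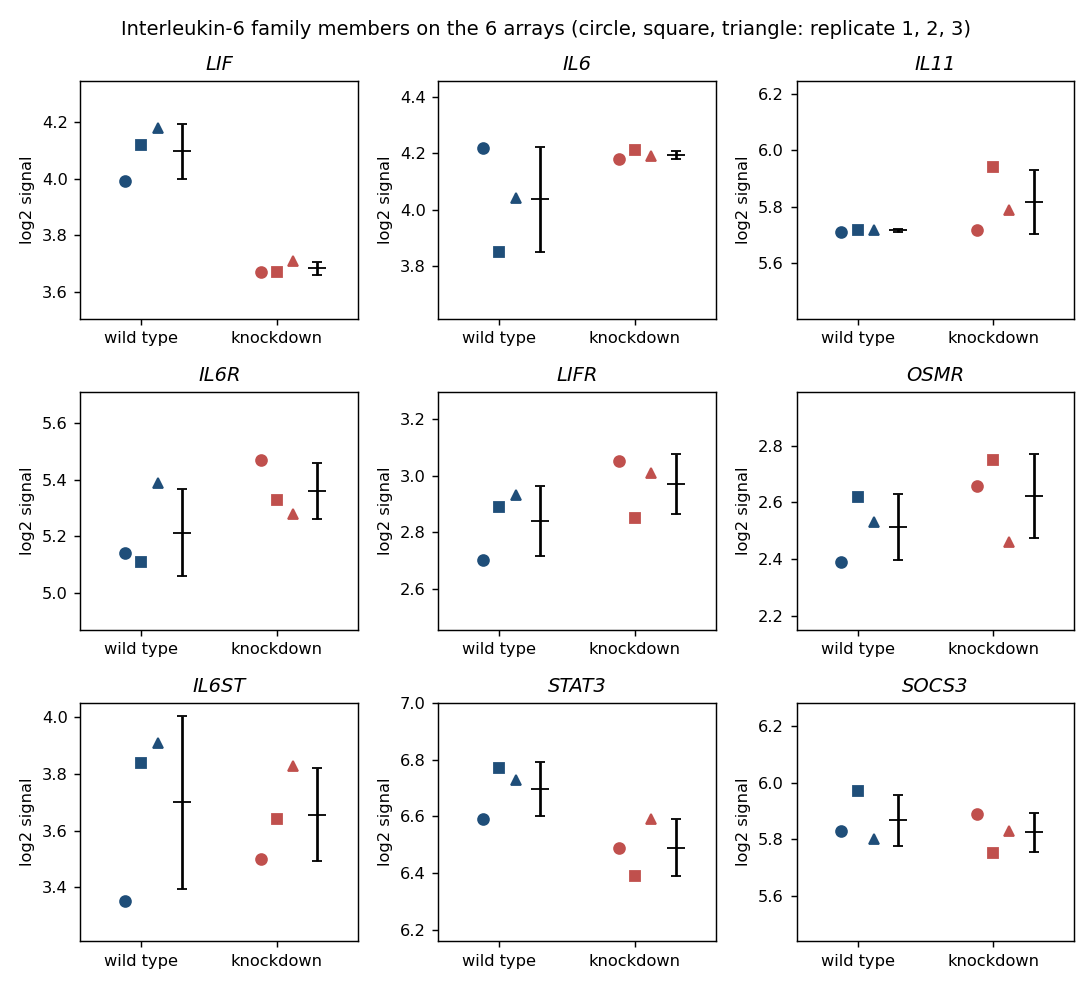
Log2 signal of the 9 measured members (vertical axes, each spanning the same width of the log2 scale) on the wild-type (blue) and knockdown (red) arrays, with symbols for the replicate number and the mean ± SD (n = 3) in black beside each group. The LIF groups are apart, at 3.67 to 3.71 against 3.99 to 4.18, the STAT3 groups meet at 6.59, the IL11 groups meet at 5.72, and the groups of the other 6 genes overlap.

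The 4 receptor chains among the members all overlapped between the groups. IL6R, which binds interleukin-6, gave 5.47, 5.33 and 5.28 in the knockdown against 5.14, 5.11 and 5.39 in the wild type. Its log2 difference was 0.15 ± 0.11 (SE), and it was 0.23 without wild-type replicate 3 and 0.09 when knockdown replicate 1 was left out. LIFR, the chain that binds LIF, gave 3.05, 2.85 and 3.01 against 2.70, 2.89 and 2.93, with wild-type replicate 1 lowest of the 6. Its log2 difference of 0.13 ± 0.11 (SE) was 0.06 without that array.

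OSMR, the oncostatin M receptor chain, gave 2.66, 2.75 and 2.46 in the knockdown against 2.39, 2.62 and 2.53 in the wild type. The arrays of both groups were interleaved, and the log2 difference of 0.11 ± 0.11 (SE) was 0.05 without knockdown replicate 2 and 0.19 when knockdown replicate 3 was left out. IL6ST, the shared gp130 chain, gave 3.50, 3.64 and 3.83 against 3.35, 3.84 and 3.91. It had the widest range of the 9 members, 0.56 over the 6 arrays, and replicate 1 was the lowest array of each group. Its log2 difference of -0.04 ± 0.16 (SE) was -0.22 without wild-type replicate 1 and 0.06 without wild-type replicate 3.

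Of the pair downstream of the receptors, STAT3 was lower on average in the knockdown and SOCS3 was close to level. STAT3, the transcription factor that carries the gp130 signal to the nucleus, gave 6.49, 6.39 and 6.59 in the knockdown against 6.59, 6.77 and 6.73 in the wild type. The groups met at 6.59, the value of knockdown replicate 3 and of wild-type replicate 1, and no knockdown array was above a wild-type array. The log2 difference was -0.21 ± 0.10 (SE), a knockdown signal of 86.7% of the wild type, and it ran from -0.26 to -0.16 with any 1 array left out. SOCS3, which blocks JAK kinases and is itself induced by STAT3, gave 5.89, 5.75 and 5.83 against 5.83, 5.97 and 5.80. The groups overlapped, and the log2 difference of -0.04 ± 0.10 (SE) was 0.01 without wild-type replicate 2.

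Over the 9 measured members, 4 had values below 0, LIF, STAT3, IL6ST and SOCS3, and 5 above. Values below 0 made up 45.5% of all genes, so the count of members is near the background. The median log2 difference of the members was 0.10, against 0.01 over all genes, and 0.038 without knockdown replicate 2. The groups did not overlap for 1 of the 9, LIF, which is 11.1%, against 10.1% of all genes in either direction and 4.15% with the knockdown lower. Since LIF was chosen from this contrast, nothing is read from that share. Without wild-type replicate 2 the number of members below 0 was 2, LIF and STAT3.

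**Figure D2:**
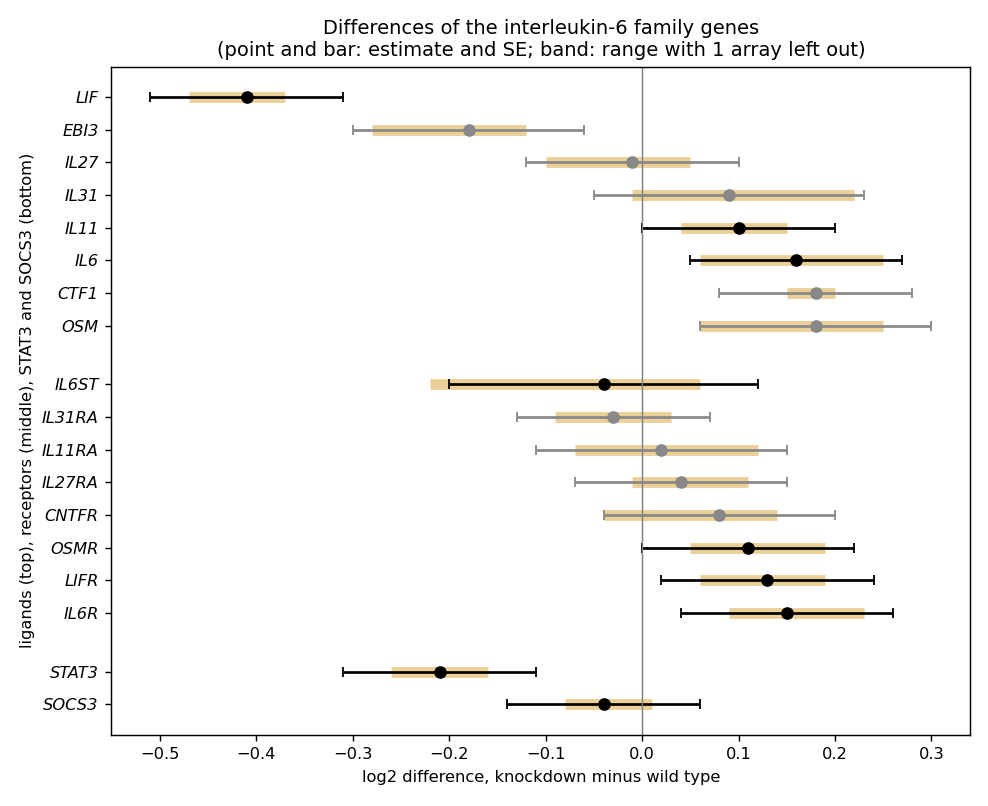
Log2 difference, knockdown minus wild type, with SE (points and bars, 3 arrays per group) for the measured ligands, receptors, STAT3 and SOCS3, with members in black, other family genes in grey and the range with 1 array left out as a band. LIF at -0.41 lies farthest from 0, and the bands of IL6ST, SOCS3, IL27, IL31, IL11RA, CNTFR, IL27RA and IL31RA cross 0.

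The members differed in how far their signals stood above the dim end of the array. LIF, IL6, LIFR, OSMR and IL6ST were among the dimmest 40% of genes, and IL11, IL6R, STAT3 and SOCS3 were not. Olfactory receptor genes, which most tissues keep silent, served as a reference for dim signals. Of 341 such genes, 89.4% were in the dimmest 40%. The share of them with a mean signal at or above that of a member was 82.1% for OSMR, 61.3% for LIFR, 24.3% for IL6ST, 19.6% for LIF and 13.5% for IL6. It was 2.35% for IL6R, 0.293% for IL11 and for SOCS3, and 0 for STAT3. Probe sets differ in how brightly they report the same amount of RNA, so these shares do not rank the genes by expression. PTPN11, a phosphatase that most cell types make, was also in the dimmest 40%, at percentile 17.8. It is a single picked example, since 3 of 16 negative regulators and 0 of 11 JAK, STAT and adaptor genes were that dim.

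The other genes of the family were taken from lists of ligands and receptors, and none passed the limma test at an adjusted p under 0.05 over all genes. The 8 measured ligands include the members LIF, IL6 and IL11. Of the 8, 5 had values above 0 and 3 below (median 0.097, or 0.026 without wild-type replicate 2). Outside the members OSM, CTF1 and IL31 were above 0, and EBI3 and IL27 below. Values below 0 made up 45.5% of all genes. CTF1, the gene of cardiotrophin-1, gave 7.46, 7.54 and 7.51 in the knockdown against 7.36, 7.27 and 7.34 in the wild type. Its knockdown arrays all lay above the wild type, as they did for 5.98% of all genes, with a log2 difference of 0.18 ± 0.10 (SE, adjusted p = 0.902, limma). OSM, oncostatin M, gave 4.96, 4.92 and 4.89 against 4.90, 4.52 and 4.82, and the groups overlapped through wild-type replicate 1. Its log2 difference of 0.18 ± 0.12 (SE) was 0.06 without wild-type replicate 2.

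EBI3, the subunit that interleukin-27 and interleukin-35 share, gave 4.98, 4.83 and 4.97 in the knockdown against 4.91, 5.23 and 5.18 in the wild type. The groups overlapped through wild-type replicate 1, and the log2 difference of -0.18 ± 0.12 (SE) was -0.28 without that array and -0.12 without wild-type replicate 2. IL27, the partner of EBI3 in interleukin-27, differed by -0.01 and IL31, a cytokine of itch, by 0.09. IL27 was -0.10 without knockdown replicate 3 and 0.05 when knockdown replicate 2 was left out, and IL31 was -0.01 without wild-type replicate 2 and 0.22 without wild-type replicate 3.

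The 8 receptor genes include the members IL6R, LIFR, OSMR and IL6ST. Of the 8, 6 had values above 0 and 2 below (median 0.057, or 0.006 without knockdown replicate 2), and the groups overlapped for each. Outside the members the receptors were IL11RA, which binds interleukin-11, at 0.02, CNTFR, which binds ciliary neurotrophic factor, at 0.08, IL27RA at 0.04 and IL31RA at -0.03. Each of the last 4 changed sign with some array left out.

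The kinases and adaptors that pass the signal on showed no gene past the threshold either. Of 11 measured JAK, STAT and adaptor genes, the member STAT3 among them, 7 had values below 0 and 4 above. Their median was -0.043, and it was 0.01 with array weights and -0.107 without knockdown replicate 3. GAB1, a docking protein, differed most, at 6.02, 5.45 and 5.91 in the knockdown against 6.22, 6.08 and 5.85 in the wild type. Knockdown replicate 2 stood lowest, and the log2 difference of -0.26 ± 0.16 (SE) was -0.08 without it. JAK2, a kinase bound to gp130, gave 4.90, 4.84 and 5.19 against 4.97, 5.34 and 5.19, with overlap through knockdown replicate 3. Its log2 difference of -0.19 ± 0.13 (SE) was -0.30 without that array and -0.10 without wild-type replicate 2. SOS1, an exchange factor for RAS, gave -0.16 and SHC1, an adaptor to the RAS pathway, gave 0.15. SOS1 was -0.08 without wild-type replicate 2, and SHC1 was 0.03 without knockdown replicate 2.

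Among the 16 negative regulators, the member SOCS3 included, 8 had values above 0 and 8 below (median -0.01, or 0.023 without wild-type replicate 2). PIAS1, a SUMO ligase that restrains STAT proteins, gave 7.79, 7.25 and 7.84 in the knockdown against 7.84, 7.85 and 7.98 in the wild type. Again knockdown replicate 2 stood apart, and the log2 difference of -0.26 ± 0.15 (SE) was -0.08 without it. CISH, a SOCS-family inhibitor induced by STAT5, gave 4.99, 5.12 and 4.78 against 4.91, 4.78 and 4.58, a log2 difference of 0.21 ± 0.13 (SE), which was 0.12 without wild-type replicate 3. PIAS2, a relative of PIAS1, differed by -0.19 and SOCS1, an inhibitor of JAK kinases, by -0.16. PIAS2 was -0.12 without knockdown replicate 1, and SOCS1 was -0.40 when knockdown replicate 1 was left out and 0.12 when knockdown replicate 3 was.

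Textbook targets of STAT3, the member SOCS3 among them, lay on both sides of 0, with 18 of 34 above and 16 below. Their median was 0.018, against 0.01 over all genes, and none passed the threshold. That median was -0.032 without knockdown replicate 3 and -0.03 without the dimmest 40% of genes. BCL2L1, which encodes the survival protein BCL-xL, gave 6.35, 6.01 and 5.97 in the knockdown against 6.37, 5.66 and 5.30 in the wild type. Replicate 1 was the brightest array of each group, and the log2 difference of 0.33 ± 0.23 (SE) was 0.09 without wild-type replicate 3 and 0.63 without wild-type replicate 1. HIF1A, the oxygen-regulated transcription factor, gave 9.23, 9.19 and 9.68 against 9.34, 9.91 and 9.84. The groups overlapped, and its log2 difference of -0.33 ± 0.17 (SE) was -0.51 without wild-type replicate 1. It was also -0.22 without wild-type replicate 2.

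ZFP36, which speeds the decay of cytokine mRNAs, differed by 0.25 ± 0.17 (log2 difference ± SE), but by 0.04 without knockdown replicate 2 and 0.42 when knockdown replicate 3 was left out. BCL3, a nuclear partner of NF-kappaB, differed by 0.24 ± 0.13, and by 0.14 without wild-type replicate 2. The groups did not overlap for 2 of the 34 targets, or 5.88% against 10.1% of all genes in either direction. These were CEBPD and MCL1, named after their values were seen. Both had the knockdown lower, as did 4.15% of all genes, and nothing is read from so small a count. CEBPD, a transcription factor of the acute-phase response, gave 6.79, 6.76 and 6.89 in the knockdown against 6.96, 7.01 and 6.96 in the wild type, a log2 difference of -0.16 ± 0.10 (SE, adjusted p = 0.902, limma). MCL1, a survival protein of the BCL2 family, gave 5.55, 5.37 and 5.50 against 5.64, 5.68 and 5.68, a log2 difference of -0.19 ± 0.10 (SE, adjusted p = 0.902, limma).

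**Figure D3:**
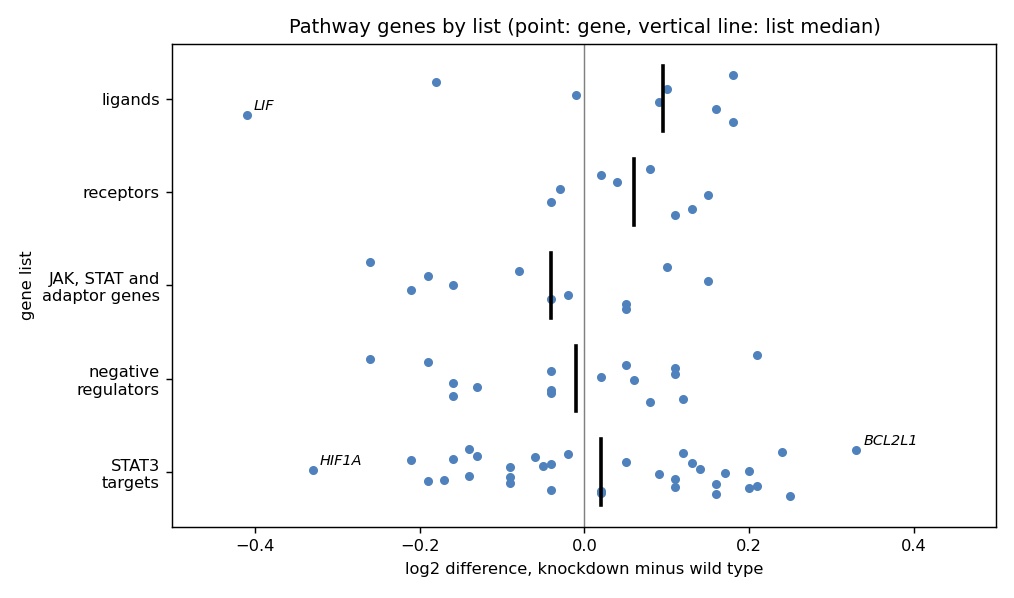
Log2 difference, knockdown minus wild type (horizontal axis), of each measured gene of the 5 pathway lists, with 1 point per gene and the list median as a vertical line; points in a row are spread vertically only to separate them. The medians lie between -0.043 and 0.097, and LIF, HIF1A and BCL2L1 are the labelled genes beyond 0.3 from 0.

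Taking the 67 measured pathway genes that are not members, limma with Benjamini-Hochberg adjustment over all genes called 0, and 0% of the 18417 genes were called in the whole table. At an unadjusted p under 0.05 it also found 0 of these 67, against 5.09% of all genes, but 5 without knockdown replicate 3, 4 without wild-type replicate 1 and 1 or 2 when any of the other 4 arrays was left out. The groups did not overlap for 3 of the 67, CTF1, CEBPD and MCL1, or 4.48% against 10.1% of all genes. At the standard errors of the 9 members, a gene changed on its own would need a difference of 1.88-fold for LIF to 2.68-fold for IL6ST to be called over all genes, so smaller changes were not reliably detectable with 3 arrays per group.

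STAT proteins bind the palindrome TTCNNNGAA, which reads the same on both strands, so the letters near the starts of these genes are shown to place the values above. The 250 bases before each annotated start were searched in the RefSeq promoter table (GRCh38.p14), which held 8 of the 9 measured members, all but LIF. Of these 8, only LIFR had a match, in 2 of its 3 windows. Among STAT3 targets, 22 of 34 were in the table and 6 of the 22 had a match, or 27.3%, against 8.09% of all 27305 genes in the table. The windows are written on the strand of the gene, with the match in capitals. LIFR is shown as the member with a match, CISH for its 4 matches, ICAM1 and IRF1 as known targets of STAT proteins, and LRG1 and HAMP as acute-phase targets.
LIFR, chr5:38595552-38595580, minus strand: ccattactagTTCCTTGAAccacaatcca
LIFR, chr5:38557631-38557659, minus strand: gctttggagtTTCATCGAAaggtctttaa
CISH, chr3:50611997-50612024, minus strand: cgccccgttTTCCTGGAAagttcttgga
CISH, chr3:50611986-50612014, minus strand: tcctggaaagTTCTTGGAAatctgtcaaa
CISH, chr3:50611885-50611913, minus strand: cagcccgcggTTCTAGGAAgacgctgctt
CISH, chr3:50611868-50611896, minus strand: aagacgctgcTTCCGGGAAgggctggaac
ICAM1, chr19:10271035-10271063, plus strand: ggcgcgaggtTTCCGGGAAagcagcaccg
IRF1, chr5:132490879-132490907, minus strand: acagcctgatTTCCCCGAAatgacggcac
HAMP, chr19:35282425-35282453, plus strand: cgccaccaccTTCTTGGAAatgagacaga
LRG1, chr19:4540180-4540208, minus strand: aggaaacaatTTCCAGGAAgcaattttgt

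The targets with these letters lay on both sides of 0. The log2 difference was 0.17 for ICAM1, a leukocyte adhesion molecule, and 0.14 for HAMP, the iron hormone hepcidin. It was -0.14 for IRF1, an interferon response factor, and -0.17 for LRG1, a secreted acute-phase glycoprotein. BCL6, a transcriptional repressor, and FGA, the fibrinogen alpha chain, were the other two with a match, at 0.12 and 0.05. Single arrays carried much of these values. With 1 array left out IRF1 was 0.04 without wild-type replicate 3 and -0.35 without wild-type replicate 1, and BCL6 was -0.07 without knockdown replicate 3 and 0.28 when knockdown replicate 1 was left out. HAMP was 0.01 without wild-type replicate 3, LRG1 was -0.05 without wild-type replicate 2, and ICAM1 was 0.08 without knockdown replicate 3. FGA was 0.14 without knockdown replicate 1. The 6 targets with a match had a median of 0.08 and the 16 without had 0.06. A match is a run of letters and not a measured binding site.

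The genes most like LIF over the 6 arrays were sought among those outside the dimmest 40%, by Pearson correlation with the LIF signal. The 5 nearest were DNAJC10, a reductase of the endoplasmic reticulum (r = 0.994), UBE2S, a ubiquitin-conjugating enzyme of mitosis (r = 0.978), PSMB6, a proteasome subunit (r = 0.978), NAA30, an acetyltransferase subunit (r = 0.975), and ELAC1, a tRNA-processing nuclease (r = 0.969). These r values are a description over 6 arrays. The LIF arrays fall into separate knockdown and wild-type clusters, so a gene that splits the groups scores high. All 5 had every knockdown array below the lowest wild-type array, as did 4.15% of all genes. Their log2 differences were -0.15 for PSMB6 to -0.28 for NAA30. The choice by r with LIF favours such a split, so the split of these 5 is no added evidence. For DNAJC10 the values were 4.35, 4.34 and 4.39 in the knockdown against 4.54, 4.58 and 4.62 in the wild type.

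**Figure D4:**
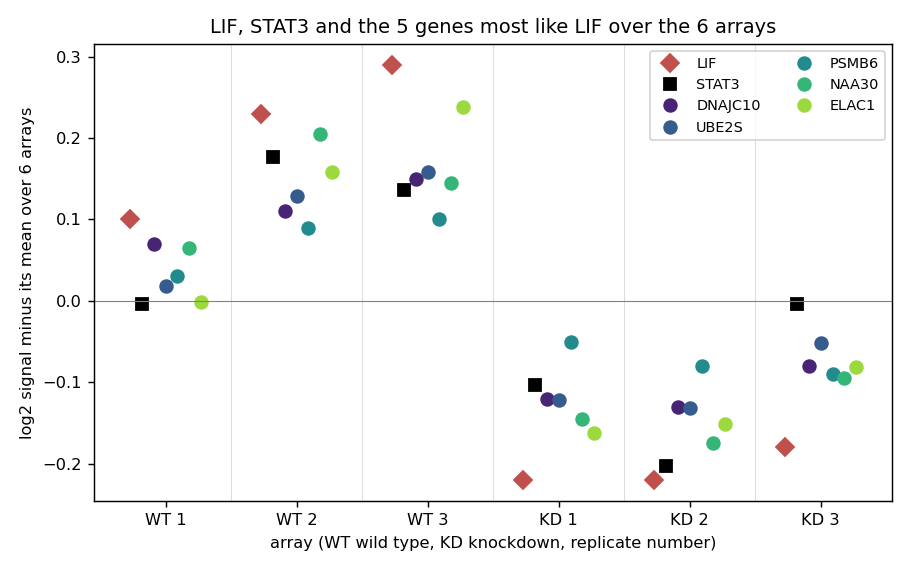
Log2 signal minus its mean over the 6 arrays (vertical axis) for LIF, STAT3 and the 5 genes with the highest correlation with LIF, on each wild-type (WT) and knockdown (KD) array; points within an array are offset sideways only to separate them. For LIF and the 5 genes the 3 knockdown points lie below all wild-type points, while STAT3 meets at 6.59 on knockdown replicate 3 and wild-type replicate 1.

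Cell type markers were set beside these values. Among 10 astrocyte and glial markers, VIM, SOX9, NES and GFAP were bright, at percentiles 97.6, 90.0, 79.9 and 75.9 of the mean signal. S100B, AQP4, SLC1A2, SLC1A3 and the mesenchymal marker CD44 were among the dimmest 40%. Of 9 microglia and leukocyte markers, 6 were among the dimmest 40%, and the leukocyte antigen PTPRC was at percentile 7.86. TYROBP, ITGAM and CSF1R of that list were not, at percentiles 87.5, 59.7 and 50.8. The summed log2 signal of the 9 was 35.24 to 35.74 in the knockdown and 34.59 to 35.75 in the wild type, and 6 of the 9 had values above 0. Of 10 glial markers 6 had values above 0, with sums of 46.47 to 47.56 in the knockdown and 45.91 to 46.99 in the wild type. Of 7 endothelial markers 6 had values above 0, with sums of 29.38 to 30.35 against 28.98 to 29.51. Of 7 neuron markers 5 had values above 0, with sums of 34.00 to 34.96 against 33.26 to 34.90. Over all genes 9465 of 18417 had values above 0. The neuron markers NEFL and RBFOX3, at percentiles 92.4 and 79.3, and the endothelial CLDN5, at 80.5, were brighter than GFAP. Brightness therefore does not set the glial list apart from the others. No marker passed the limma test at an adjusted p under 0.05 over all genes. At an unadjusted p under 0.05 in limma each list had 1 gene, against 5.09% of all genes. These were AQP4, CD14, CLDN5 and STMN2, all higher in the knockdown. The groups did not overlap for 7 of 33 markers, or 21.2% against 10.1% of all genes. By log2 difference these were CD14, a monocyte receptor, at 0.42, the water channel AQP4 at 0.37, the neuronal STMN2 at 0.32, the tight-junction gene CLDN5 at 0.27, the synaptic SYT1 at 0.20, the microglial receptor P2RY12 at 0.08 and the glutamate transporter SLC1A3 at -0.17. The part of these markers in the LIF and STAT3 values was not tested.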

How the data were processed

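Total RNA of U-87 cells was measured on 6 arrays. The authors deposited log2 signals made with RMA, per the submitters' processing notes. The RMA version and filters are not stated in the labels. RMA brings the probe signals of the arrays to a common distribution before it summarises them, which can hide a shift common to most genes; the array medians here were 4.32 to 4.37. Of 29096 probe sets, 19460 had 1 gene symbol in the platform annotation, 1754 several and 7882 none. Of several probe sets for a gene the brightest on average was used, which left 18417 genes. Knockdown and wild type were compared with limma 3.58.1 in R 4.3.3 (lmFit and eBayes, two-sided, group as the only term), with Benjamini-Hochberg adjustment over all genes and a threshold of 0.05. The standard errors are those of this fit, with a median of 0.12. On simulated data with 200 of 18417 genes changed by 1 on the log2 scale, the fit recovered 99.6% of them, and 5.3% of its calls were false. A change of 1 is larger than the difference of any member, so this recovery does not apply to changes of their size.

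The members and gene lists were chosen with earlier results of these data known. The genes named are the members, all measured ligands and receptors, the 4 genes with the largest absolute difference in each other list, and the 5 genes most like LIF. Genes shown for their promoter letters, markers named, CEBPD, MCL1 and PTPN11 were chosen after their values were seen. Alternatives were 3 further scalings (median centring, quantile, cyclic loess), a filter on the dimmest 40%, averaged probe sets, a robust intensity trend, array weights, a replicate block, and the omission of each array. The number of arrays limits the precision.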

Additional observations from a re-analysis of the deposited data

How the results depend on the processing

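The LIF difference was -0.47 to -0.37 with single arrays left out and -0.43 to -0.41 under the other alternatives that gave a value. That of STAT3 was -0.26 to -0.16 over all 14. Averaged probe sets, the robust trend and the replicate block could not move the LIF estimate, which stayed at -0.41. As the LIF groups do not overlap, leaving out 1 array could not change its sign. The kept direction of LIF is therefore no added evidence. No gene of the table and no pathway gene was called under any of the 14. The number of members lower in the knockdown was 2 to 4 with single arrays left out, and 2 of the 4 that remained without the dimmest 40% of genes, where LIF gave no value. Pathway genes other than the members with an unadjusted p under 0.05 in limma numbered 0 as reported, 1 to 5 with single arrays left out and 0 to 2 under the other alternatives. Over all genes the same counts were 937, 543 to 1353 and 567 to 1149. Cyclic loess between arrays changed the share of genes higher in the knockdown, among those with an unadjusted p under 0.05, from 59.4% to 51.2%, and the median of all genes fell by 0.013 at most over the 3 scalings. Deviations of same-numbered arrays correlated with r = 0.27, -0.03 and 0.13 for replicates 1, 2 and 3, and those of differently numbered arrays with -0.25 to 0.17. Knockdown replicate 1 correlated with wild-type replicate 1 at 0.988, above its 0.978 and 0.984 with the other knockdown arrays. Whether the replicate numbers pair the arrays is not settled by these values. The block raised the genes with an unadjusted p under 0.05 in limma from 937 to 1149, and took the IL6ST SE from 0.16 to 0.11. With the replicate block LIF was -0.41 with 4 members lower, 0 genes and 0 pathway genes called.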
